A study of Mus musculus with 2 samples.

Results

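Regions bound by macroH2A1 were described at 6 long genes with roles in neurons, Opcml, Grin2a, Csmd1, Nrg1, Ntrk2 and Anks1b, in mouse embryonic stem cells. A region belonged to a gene if the authors' deposited peak list gave it that gene's symbol, or if it lay wholly within the gene's deposited start and end. By this rule the 6 genes held 18 of the 2558 distinct regions in the list, and they are 6 of its 2132 assigned genes. The genes had been picked because the list gave each of them several regions, so their number of regions is a description of how they were chosen and not a result.

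The cells were E14, an established embryonic stem cell line, untreated and kept in growth medium with leukemia inhibitory factor. Chromatin was immunoprecipitated and sequenced (ChIP-seq) once with an antibody raised against a C-terminal part of mouse macroH2A1 and once with non-specific IgG. With 1 library per antibody there is no replicate, so no test was made and no value below carries an error between cultures. The list gives a position and a width for each region but no read count, enrichment or score, and the depth of the libraries is unknown. No region of the list was narrower than 1051 bp. If narrower regions were left out of it, they are missing from the counts, widths, spacings and empty stretches below. Values of the IgG library were not analysed here. No gene expression was measured in these libraries, so the neuronal character of the 6 genes is textbook knowledge and was not checked in these cells.

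MacroH2A1 is a variant of the core histone H2A that carries a large additional globular domain, the macro domain. It is known for its enrichment on the inactive X chromosome and in other repressed chromatin, and it also occurs within some transcribed genes. The 6 genes encode a signalling ligand, receptors, adhesion and surface proteins and a scaffold of the synapse. Nrg1 encodes neuregulin 1, a ligand of the ErbB receptor kinases. Ntrk2 encodes TrkB, the receptor of the neurotrophin BDNF, and Grin2a encodes the GluN2A subunit of NMDA-type glutamate receptors. Opcml is an adhesion molecule of the IgLON family, Csmd1 a large transmembrane protein with CUB and sushi domains, and Anks1b a postsynaptic protein with ankyrin repeats, also called AIDA-1.

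Of the 18 regions, 13 were inside a gene, 4 upstream and 1 downstream, and 0 covered a gene start. Over the whole list, 16.3% of regions lay wholly inside a deposited gene, 14.2% inside the gene they were assigned to (12 of the 18 here), and 1.17% covered the start of their assigned gene. The inside class is favoured by the choice of long genes and by the rule, which adds any region inside a gene, so the count of 13 is a description. Inside regions were found in 5 of the 6 genes, with 3 each in Opcml, Grin2a and Anks1b and 2 each in Csmd1 and Ntrk2. Nrg1 had none within its deposited span, so the description as a gene with regions along it does not hold for Nrg1 in these files. Only Csmd1 had a region within 10 kb of its start. Each of these 5 genes held 2 or more inside regions, which 2.06% of all 2132 assigned genes did. Among the 186 assigned genes at least as long as Nrg1 (191 kb), called long genes below, the share was 14.0%. Nothing is read from these shares, because the genes were chosen on them. Without the Csmd1 region that the list gave to another gene, 4 of the 6 genes held 2 or more, and among regions at least as wide as the median of the list 3 did: Opcml, Ntrk2 and Anks1b.

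**Figure D1:**
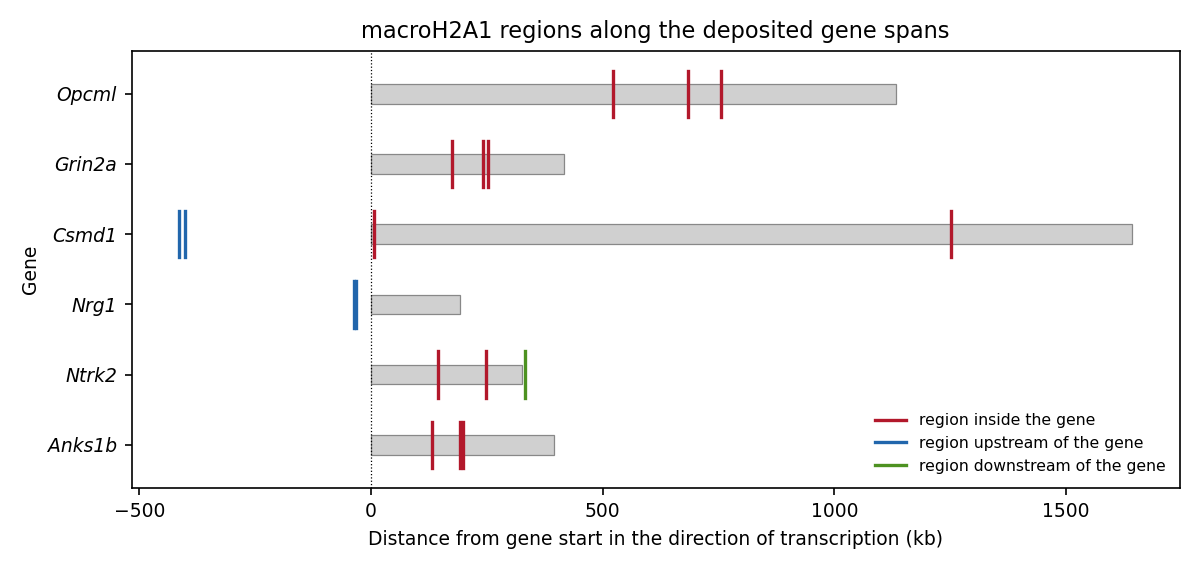
Regions along the 6 genes, drawn as distance in kb from the gene start in the direction of transcription. Grey bars are the deposited gene spans and coloured lines the midpoints of regions inside, upstream or downstream of the gene. The 3 inside regions of Opcml begin 522 kb from its start, and both Nrg1 regions lie upstream.

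Nrg1, the ligand of the group, is deposited as ENSMUSG00000062991 on chromosome 8 (mm9, 32928500 to 33119581, minus strand). Its 2 regions were upstream, at 33151100 to 33152550 and 33156250 to 33158100, which is 31.5 and 36.7 kb from the deposited start. They were 1451 and 1851 bp wide and separated by 3.7 kb, the closest spacing at any of the 6 genes. The deposited span of Nrg1 is short beside the RefSeq gene of assembly GRCm38.p6, whose length is 1084 kb, or 5.67 times as long. Whether the upstream regions lie within a longer transcript of Nrg1 was not tested, since the assemblies differ. The next regions of the list that belong to other genes were 835.5 kb before the start of Nrg1 and 831 kb past its end.

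Ntrk2, the TrkB receptor gene, is deposited as ENSMUSG00000055254 on chromosome 13 (mm9, 58909261 to 59235331, plus strand, 326 kb). A first region lay at 59053450 to 59055600, 144 kb from the start, and a second at 59156900 to 59159600, 248 kb from the start. They were 2151 and 2701 bp wide. The third, at 59239700 to 59241950 and 2251 bp wide, lay 4.37 kb past the deposited gene end. The 3 regions were thus spread from near the middle of the gene to just past its end, with gaps of 101 and 80.1 kb. The next region, 73.2 kb past the end, was assigned to Agtpbp1 and is the nearest to any of the 6 genes that the rule left out.

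Grin2a, the GluN2A subunit gene, is deposited as ENSMUSG00000059003 on chromosome 16 (mm9, 9577803 to 9995014, minus strand, 417 kb). Its 3 regions were at 9819600 to 9821050, 9753450 to 9754550 and 9742600 to 9744250, which is 174, 240.5 and 251 kb from the start. Their widths were 1451, 1101 and 1651 bp. The latter pair was 9.2 kb apart, and the first lay 65.0 kb away from it. All 3 fell between 41.9% and 60.3% of the gene length.

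Opcml, the IgLON adhesion gene, is deposited as ENSMUSG00000062257 on chromosome 9 (mm9, 27598971 to 28732631, plus strand) and at 1134 kb is the fourth longest gene of the list, rank 4 of 2132. The regions lay at 28121200 to 28122750, 28281950 to 28283550 and 28353800 to 28355550, with widths of 1551, 1601 and 1751 bp. They began 522, 683 and 755 kb from the start, at 46.1%, 60.3% and 66.7% of the gene length. No region lay in the 522 kb before the first of them, and the nearest region outside the gene on that side was a further 1295 kb away, assigned to B3gat1. On the other side the nearest region lay 1332 kb past the gene end. Such sparse surroundings were not particular to Opcml: the nearest regions outside Anks1b were 2053 kb before its start and 3332.5 kb past its end.

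Csmd1, the CUB and sushi domain gene, is deposited as ENSMUSG00000060924 on chromosome 8 (mm9, 15892545 to 17534974, minus strand) and is the longest gene of the list at 1642 kb. A region of 1501 bp at 17528350 to 17529850 lay 5.12 kb past its start, the closest to a start at any of the 6 genes. A second inside region, 1851 bp wide at 16281400 to 16283250, lay 1252 kb from the start. It was the only one of the 18 that the list gave to another gene, ENSMUSG00000077051, which has no symbol and whose start is 863 kb from the region. Among regions inside the other 180 long genes, 30 of 124 (24.2%) were given to another gene in this way. The other 2 regions of Csmd1 were not in the gene: they lay upstream at 17935800 to 17936850 and 17948000 to 17949450, 401 and 413 kb from the start, with widths of 1051 and 1451 bp. Between the 2 inside regions 1245 kb were empty, or 75.8% of the gene.

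Anks1b, the postsynaptic scaffold gene, is deposited as ENSMUSG00000058589 on chromosome 10 (mm9, 90039802 to 90434736, plus strand, 395 kb). Its regions were at 90171100 to 90173650, 90231500 to 90232950 and 90237150 to 90238900, starting 131, 192 and 197 kb from the gene start. They were 2551, 1451 and 1751 bp wide. The latter 2 were 4.2 kb apart near the middle of the deposited gene, at 48.7% and 50.2% of its length, and the first was 57.8 kb from them. As with Nrg1, the deposited span is shorter than the RefSeq gene, whose length of 1100.4 kb is 2.79 times as long.

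Along the gene, 10 of the 13 inside regions had their midpoint between 25% and 75% of the gene length, against 48.2% of the 137 regions inside the 186 long genes, these 13 included. The median position was 50.2% for the 13 regions and 34.3% for the 124 inside the other long genes. In those genes 38.7% of inside regions fell in the part before 25%, while among the 6 genes only the Csmd1 region near the start did. Regions of Ntrk2 and Csmd1, at 76.4% and 76.3%, were the 2 past 75%. A long gene enters the list only through a region nearest to its own start, which can favour regions in the early part of all these genes, and the limits of 25% and 75% were chosen after the positions had been seen. All 3 Anks1b regions are among the 10, and their positions rest on the deposited span, which is shorter than the RefSeq gene.

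**Figure D2:**
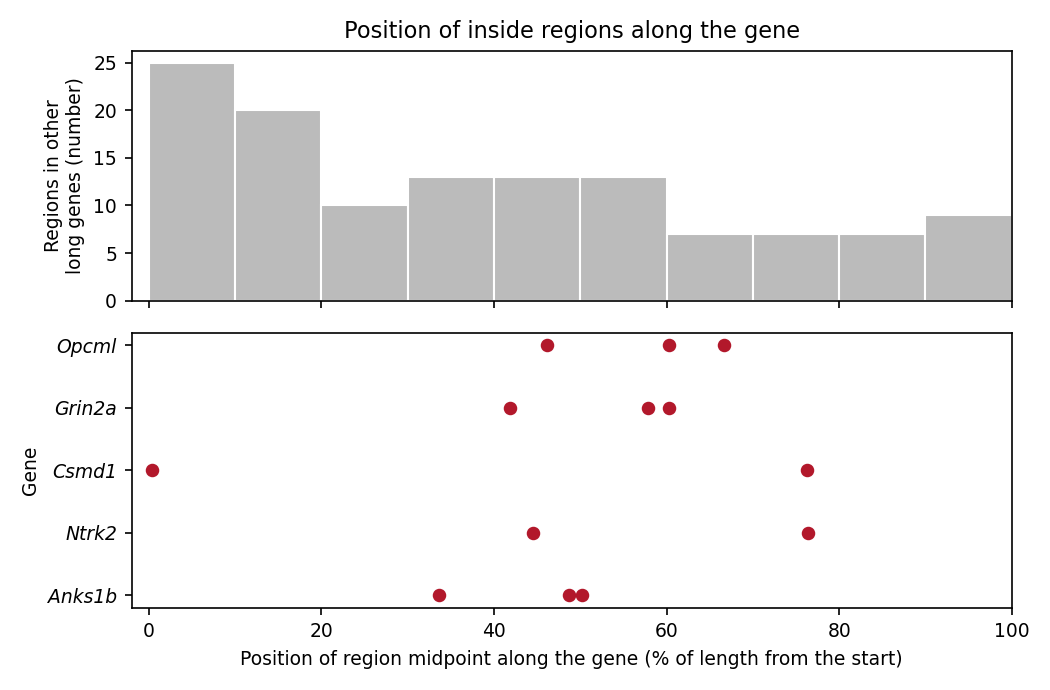
Position of region midpoints as a percentage of gene length from the start. The upper panel counts the 124 regions inside the 180 other long genes in bins of 10 percentage points, with most (25) in the first bin, and the lower panel shows each of the 13 regions inside 5 of the 6 genes, of which 10 lie between 25% and 75%.

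The number of inside regions per length differed widely among the 6 genes. Anks1b had 0.76 regions per 100 kb of gene, Grin2a 0.719, Ntrk2 0.613, Opcml 0.265, Csmd1 0.122 and Nrg1 0. Anks1b, Grin2a and Opcml share the same number of inside regions, as do Ntrk2 and Csmd1, so the order within each of these sets follows gene length. Over the summed 4.11 Mb of the 6 genes there were 0.317 regions per 100 kb. The value was 0.177 inside the other 180 long genes and 0.104 along all chromosomes as far as the list reaches. No excess is read from these values, because the 6 genes were picked for having several regions. Of the other 180 long genes, 80 held none inside. Among the 21 other long genes with 2 or more inside regions, only Nrxn3 (0.124) and Nell1 (0.225) were below 0.317. The chromosomes of the 6 genes ranged from 0.09 per 100 kb on chromosome 16, which holds Grin2a, to 0.141 on chromosome 8, which holds Csmd1 and Nrg1. Csmd1 was thus at 0.122 below the value of its own chromosome, but its value rests on 2 regions, so no lack of regions is read from it. With the RefSeq length, Anks1b fell to 0.273 per 100 kb and the 6 genes together to 0.227. Only regions inside the deposited spans were still counted, so part of the fall comes from the longer lengths alone. Nrg1 added length but no region, and whether its upstream regions would count was not tested. The values of Opcml, Csmd1, Grin2a and Ntrk2 moved little, to 0.264, 0.122, 0.701 and 0.611. RefSeq lengths were not applied to the other 180 long genes, so 0.227 and 0.177 rest on unlike lengths.

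**Figure D3:**
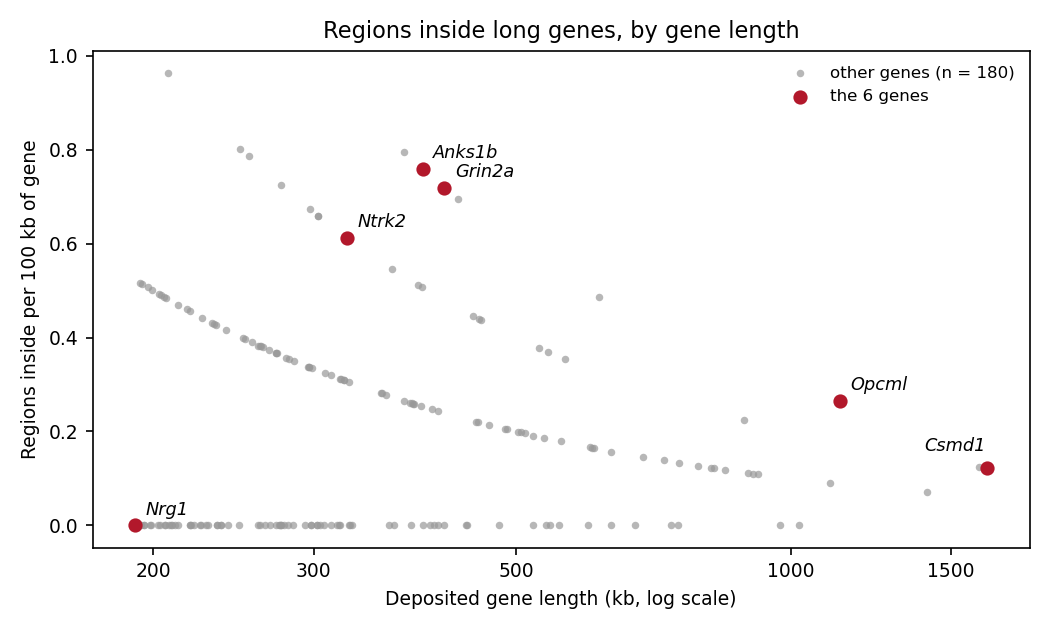
Regions inside per 100 kb of gene against deposited gene length (log scale) for 186 long genes. Points fall on curves because each gene holds 0, 1, 2 or 3 regions; Opcml and Csmd1 lie far right at 0.265 and 0.122, and Anks1b and Grin2a lie on the curve of 3 regions.

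Close pairs of regions were present at 4 of the 6 genes. The gaps were 3.7 kb upstream of Nrg1, 4.2 kb in Anks1b, 9.2 kb in Grin2a and 11.1 kb upstream of Csmd1. Thus 8 of the 18 regions had another region within 12 kb, a limit set after these gaps had been seen, against 7.62% of all 2558 regions. Genes with several regions tend to hold close ones by their choice alone: at the other 309 genes with 2 or more assigned regions, 174 of 724 regions (24.0%) had a neighbour within 12 kb. Having 2 or more assigned regions was itself a trait of 14.8% of the assigned genes. The median gap to the nearest region was 61.4 kb for the 18 regions and 40.1 kb for those 724. By this median the 18 regions were not closer together, although their share within 12 kb was higher. The 309 genes are of any length, so nothing is read from either comparison. Inside the genes, the 8 gaps between neighbouring regions ran from 4.2 to 1245 kb with a median of 67.6 kb. The median was 146 kb over 24 gaps in the 21 other long genes with 2 or more inside regions. Over all 39 other genes with 2 or more inside regions, of any length, it was 52.2 kb for 47 gaps.

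**Figure D4:**
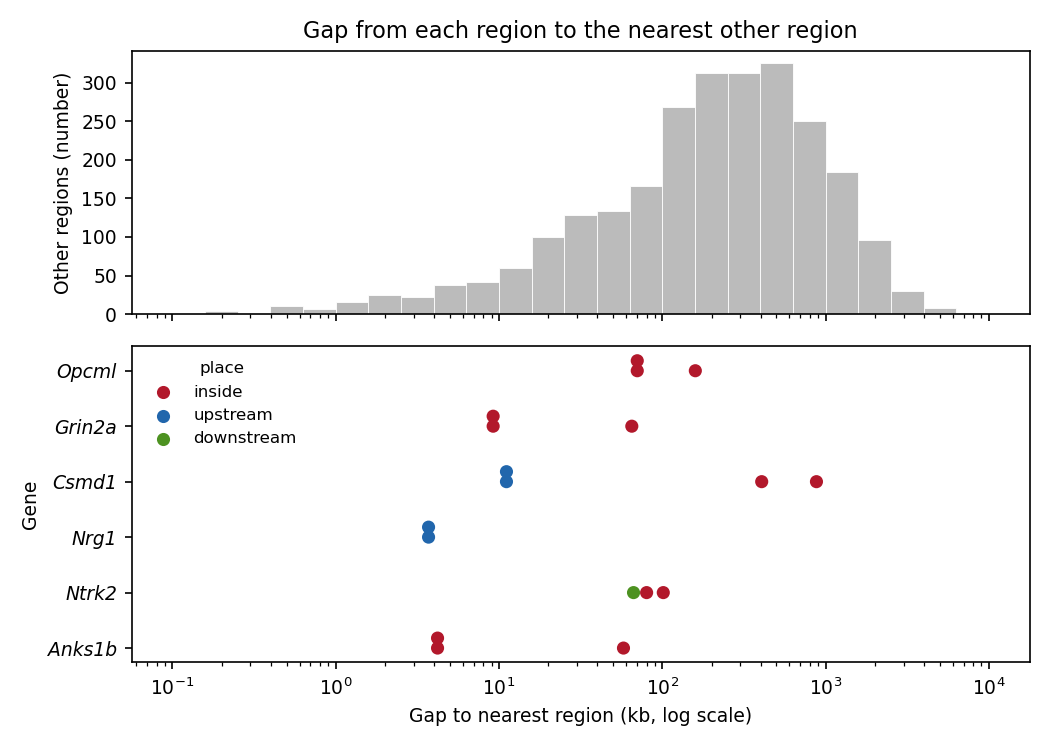
Gap in kb (log scale) from each region to the nearest other region of the list. The upper panel counts the 2540 regions outside the 6 genes, and the lower panel shows the 18 regions by gene, with equal values stacked; the pairs of Nrg1, Anks1b, Grin2a and Csmd1 lie at 3.7, 4.2, 9.2 and 11.1 kb.

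Among the 6 genes, region width was greatest at Ntrk2. Width is not part of the rule, but Ntrk2 and Anks1b had been noted earlier in these data for the total length of their regions, so their widths are given as a description. Its 3 regions of 2151, 2251 and 2701 bp ranked 165, 116 and 31 by width among the 2558 regions, and 7.39% of regions were at least as wide as the narrowest of them. The first Anks1b region, 2551 bp, ranked 48. In the remaining genes, Opcml spanned 1551 to 1751 bp, Grin2a 1101 to 1651 bp, Csmd1 1051 to 1851 bp and Nrg1 1451 to 1851 bp. The 1051 bp of Csmd1 is the lowest width in the list. The median over the 18 regions was 1626 bp, beside 1551 bp over the 2540 others, and without Ntrk2 it was 1551 bp as well. In all, 6 of the 18 were wider than 1801 bp, the upper quartile of the others, as were 24.9% of all regions. A number closes each peak name, and its meaning is not given in the sources used here. It was 24, 511 and 21 for the Ntrk2 regions of 2151, 2251 and 2701 bp, and 940 for the Anks1b region of 2551 bp. The median number was 1290 over the 18 regions and 1281.5 over the others.

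**Figure D5:**
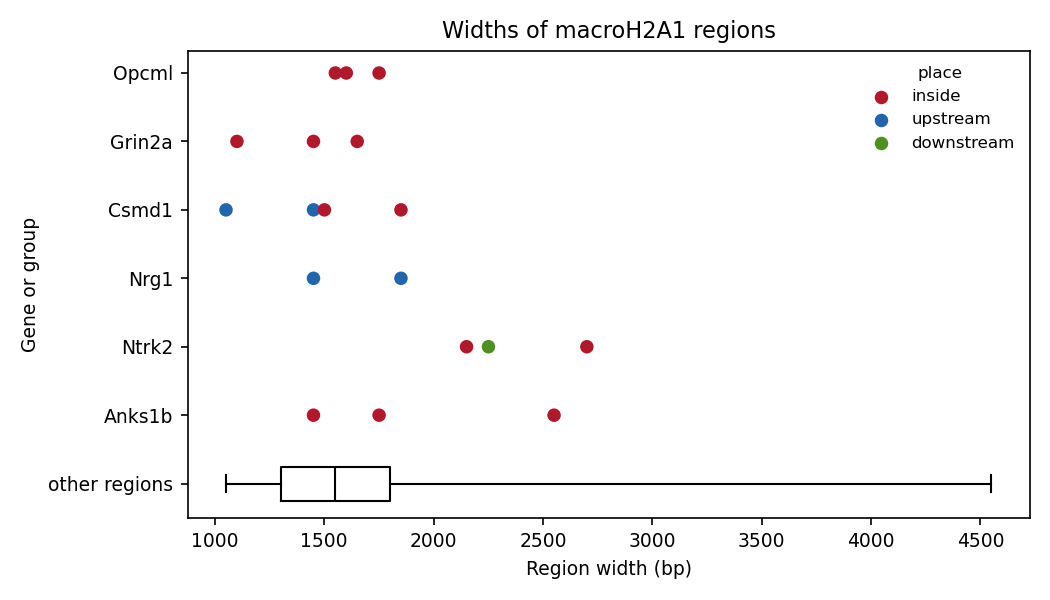
Width in bp of each of the 18 regions, by gene and place, above a box plot of the 2540 other regions (line, median; box, quartiles; whiskers, lowest and highest). The 3 Ntrk2 regions, at 2151 bp and wider, and 1 Anks1b region lie beyond the box, as do 2 at 1851 bp by a small margin.

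Relatives of the 6 genes were mostly without a row in the list. In 8 lists, of gene families and of other genes that are mostly long and neuronal, 20 of the 109 genes beside the 6 had a row, whereas 6.18% of 21631 protein-coding genes of the RefSeq table did. Gene length was not matched between these sets, so the shares are not compared further. Among IgLON genes, Negr1 had a row besides Opcml. It had 1 region inside, given to another gene, and 1 upstream region 366 kb from its start. No other NMDA receptor subunit had a row, but 3 of 9 AMPA and kainate receptor genes did: Gria1, Grik1 and Grik2. Of these, Grik2 had 1 region inside. Neither Csmd2 nor Csmd3 had a row, and none of the 7 other neuregulin and ErbB receptor genes did. Ntrk3, which encodes the neurotrophin receptor TrkC, had 1 inside region 10.2 kb from its start, 1351 bp wide and so narrower than any of Ntrk2. Sorcs3, a sortilin-related receptor gene, had 1 upstream region at 38.7 kb, and the scaffold gene Dlg1 had 1 upstream at 17.8 kb.

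In the list of 55 other genes, mostly long and neuronal, 13 had a row, and 3 of these held 2 or more regions inside: Odz3 with 3, and Nrxn3 and Nav2 with 2 each. The remaining 10 were Cntnap5a, Pcdh15, Dpp6, Auts2, Odz4, Fhit, Lrrc4c, Nkain2, Rims1 and Unc13c. Lrrc4c, at 164 kb, is shorter than Nrg1, and Fhit encodes a nucleotide hydrolase at a fragile site rather than a neuronal protein. Odz4, a teneurin gene, differed from the 6 genes in having its region over the gene start. Of all 20 relatives with a row, 13 held a region inside. Among the 180 other long genes of the list 80 held none inside, so nothing is read from this count. A relative without a row has no deposited span, so regions inside it that were given to neighbours could not be counted.

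The genes most like these 6 were taken as the other genes with a symbol that are at least 191 kb long and hold 2 or more regions inside, ranked by number of regions and then by length. There were 21 such genes, of which 3 held 3 regions: Odz3, which encodes teneurin 3, an adhesion protein of neural wiring, A930011G23Rik, and Dnahc7b, an axonemal dynein gene. Odz3 had 0.487 regions per 100 kb, with 2 of its regions 2.0 kb apart at 14.8% and 15.3% of its length. Dnahc7b had 0.796 per 100 kb, all between 50.7% and 62.1% of its length, a layout close to that of Grin2a in number, density and position. Nrxn3, a presynaptic adhesion gene of 1611 kb, was close to Csmd1 in length and density at 0.124 per 100 kb, but its regions lay early, at 2.53% and 13.8%. The other 6 of the first 10 were Nell1, Fam155a, Thsd4, Nav2, Phactr1 and Xkr4, each with 2 regions and between 0.225 and 0.439 per 100 kb. With 3 inside regions Opcml, Grin2a and Anks1b were level with the most found in any other gene at least as long.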

How the data were processed

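The deposited list holds 2560 rows of macroH2A1 peak regions from 1 library, with other columns in base pairs: start, end, width, and the span of 1 assigned gene. Per the submitters' processing notes, Bowtie and the mouse build NCBIM37 (mm9) were used. The names of the regions start with CCAT, a peak caller, and the deposited assignment column states that the closest gene start decided each assignment. What settings the caller had, and how reads were filtered, was not given in the sources used here. Since the header line lacks a name for the row number, fields were read by position. Width equalled end minus start plus 1 in every row, and all ends lay on a grid of 50 bp. Rows with the same region were counted once.

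Distances run from the gene start, in the direction of transcription, to the nearest base of the region. Positions along a gene use midpoints. Density is regions wholly inside divided by deposited length. Lengths and names of RefSeq genes came from assembly GRCm38.p6, whose coordinates were not used. Exon and intron positions were not used here. The 6 genes, the gene lists and the rules for naming genes were chosen with earlier results of these data known. Named were the 6 genes, each list gene with a row, genes given a region inside one of the 6, and the 10 most alike genes. List entries that are names of 1 gene were counted once, and 1 item is not reported here. On simulated data, the counts and start distances of regions wholly inside made-up genes were recovered. Regions outside a gene or across its edge were not part of that check. Python 3.11.15, pandas 2.3.3 and numpy 2.4.6 were used.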

Additional observations from a re-analysis of the deposited data

How the results depend on the processing

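Placing regions by any overlap of at least 1 bp or by midpoint, or counting every row, changed none of the counts computed for the 6 genes. Their medians and pooled density were the same as well. The number of assigned genes with 2 or more regions inside, 44, became 46 by overlap and 45 with every row counted. With rows of the gene's own symbol only, the density was 0.292 per 100 kb, the median width 1601 bp, the median spacing inside a gene 65.0 kb, and the number of assigned genes with 2 or more regions inside fell from 44 to 22, because regions given to neighbours were left out. Csmd1 then had 1 region inside instead of 2, and 4 of the 6 genes rather than 5 held 2 or more. With regions at least as wide as the median of the list, 11 regions of the 6 genes were left, with a density of 0.219, a median width of 1851 bp and a median spacing of 85.8 kb, and 14 assigned genes held 2 or more inside. Grin2a then had 1 inside instead of 3 and Csmd1 1 instead of 2, so that 3 of the 6 genes held 2 or more. Fewer regions entered by construction. RefSeq gene lengths gave a density of 0.227, with only the regions inside the deposited spans counted. No paired analysis was possible because each antibody has 1 library and no test was made. Precision per region is unknown, since the list gives no depth.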
